A study of Mus musculus with 9 samples.

Results

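Gene expression in the embryonic cerebral cortex of mice carrying 1 knockout copy of Sfpq was compared with that of wild-type controls. The comparison used 6 of the 9 arrays of the study, 3 labelled as heterozygous for Sfpq (Sfpq+/-) and 3 labelled as control and wild type. All 6 came from cerebral cortical tissue of embryos at E13.5, frozen after dissection, with 1 array per sample on Affymetrix mouse exon arrays and no technical replicate. The 3 remaining arrays, from Sfpq-/- cortex of the same age, entered the estimate of the spread and gave the other end of the allele series. The labels name no Cre driver, deleted exon, strain, litter, slide or scan date, and the extraction note lists Sfpq+/- again where Sfpq-/- would stand, so groups were taken from titles and genotype fields. Whether embryos shared a litter is not stated, and p-values therefore cover the spread between these samples only. The comparison covers every gene that could be measured: 16854 of the 22296 gene symbols on the array, each represented by the mean log2 signal of at least 3 probe sets brighter than the median probe set (5.64 on the log2 scale).

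SFPQ is a nuclear protein of the DBHS family, with NONO and PSPC1 as its relatives and dimer partners. These proteins bind RNA and DNA and act in transcription, splicing, DNA repair and the building of paraspeckles, nuclear bodies assembled on a long noncoding RNA. SFPQ is known for its part in transcribing very long genes, many of which encode adhesion, synaptic and axon guidance proteins of neurons. At this embryonic stage the cortical wall holds dividing radial glia, intermediate progenitors and the first projection neurons.

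The 6 arrays resembled each other. Their median probe-set signals ran from 5.656 to 5.693 on the log2 scale. Between 5 and 13 genes on a control array lay more than 2-fold from the mean of the other control arrays, and between 6 and 15 genes on an Sfpq+/- array lay that far from the control mean, against 199 to 261 on the Sfpq-/- arrays. On the first principal component, 48.1% of the variance, the control arrays lay at -11.85 to -9.77 and the Sfpq+/- arrays at -14.88 to -10.82, whereas the Sfpq-/- arrays lay at 20.16 or above. On the second component, 22.3% of the variance, control 3 lay at -19.32 and the other 5 arrays between -4.33 and 7.85. The Sfpq-/- arrays lay there at 4.47, 16.18 and -17.44. With Sfpq+/- 3 at -1.74, replicate 3 was the lowest of each group on this component. Markers of cortex were bright on all of them: 24 projection neuron genes had a mean level of 10.24 to 10.31 on the control arrays and 10.35 to 10.52 on the Sfpq+/- arrays, and 21 radial glia genes of 10.53 to 10.59 and 10.58 to 10.62.

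Sfpq itself was examined first. Of its 23 probe sets, the 12 with a control mean above 10 carried most of its signal. Their mean log2 signal was 12.09, 12.07 and 12.12 on the control arrays, 12.09, 11.87 and 11.93 on the Sfpq+/- arrays, and 10.08, 10.31 and 9.99 on the Sfpq-/- arrays. Sfpq+/- 1 lay inside the control range and Sfpq+/- 2 and 3 below it, while the Sfpq-/- arrays lay far below both. The Sfpq+/- mean was lower by 0.13 than the control mean (difference -0.13, SE 0.10, 95% interval -0.34 to 0.08, limma adjusted p = 0.886), so the interval allows a loss of Sfpq signal of at most 20.9%. It lay 0.85 above the midpoint of the control and Sfpq-/- means (SE 0.08, limma adjusted p = 0.000241). A midpoint taken on the linear scale, 11.42, was also below the Sfpq+/- mean of 11.96. Of the 12 bright probe sets, 10 were below control and 2 had no overlap between the 3 and 3 arrays. The level of this gene therefore separated the Sfpq-/- arrays from the rest and did not separate Sfpq+/- from control. The labels do not say which part of the gene was deleted or which probe sets lie in it.

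**Figure D1:**
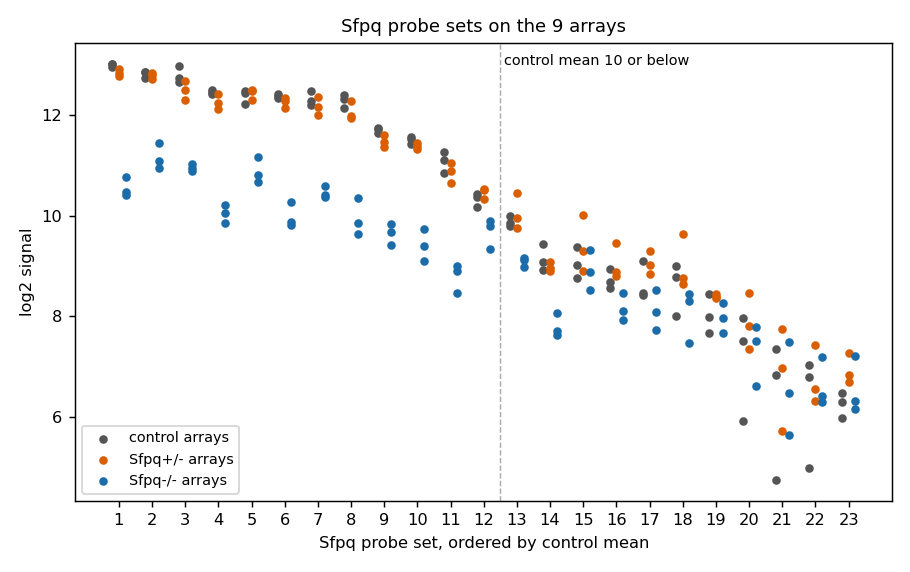
Log2 signal of each of the 23 Sfpq probe sets (x axis, ordered by control mean) on the 9 arrays; each point is 1 array and the dashed line separates probe sets with a control mean above 10. The Sfpq-/- arrays lie below both other groups in all 12 bright probe sets, while Sfpq+/- and control overlap in 10 of them; among the 11 dimmer ones the groups lie closer together and mostly overlap.

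The remaining 11 probe sets of Sfpq were dimmer and went the other way, with 10 of 11 higher than control and a mean difference of 0.39. Their mean was 8.41, 8.15 and 7.45 on the control arrays and 8.83, 8.27 and 8.08 on the Sfpq+/- arrays. Control 3, which shared its low place on the second principal component with Sfpq-/- 3, was the lowest of the 6. With all 23 probe sets averaged, Sfpq was therefore 0.12 above control in Sfpq+/- cortex (95% interval -0.24 to 0.48), and the sign of its change depended on which probe sets were used. It also turned with 1 array left out, at -0.008 without control 3 and -0.019 without Sfpq+/- 1.

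No gene passed at an adjusted p below 0.05 (limma, Benjamini-Hochberg over 16854 genes), which is 0% of those tested, and the smallest adjusted p was 0.886. At an unadjusted p below 0.05 there were 715 genes, 4.24% of those tested, where 842.7 are expected if no gene differs. Of these 375 were higher (2.22%) and 340 lower (2.02%) in Sfpq+/- cortex. In the same fit the Sfpq-/- arrays gave 1008 genes higher (5.98%) and 1032 lower (6.12%) than control at an adjusted p below 0.05. The median gene was 0.03 higher in Sfpq+/- cortex and 10322 of the 16854 differences were positive. More genes had Sfpq+/- arrays entirely above the controls, 1436 (8.52%), than entirely below, 673 (3.99%).

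Because a missed threshold does not show that expression was alike, the size of change that the arrays exclude was measured for each gene. It was measured on the mean of the gene's kept probe sets, dim and bright together. The median absolute difference was 0.078 on the log2 scale and the median SE 0.096. The largest change inside a gene's 95% interval had a median of 0.30, which is a 1.23-fold difference, and for 95% of genes it was at most 0.54, which is 1.46-fold. The interval lay within 2-fold in either direction for 16819 genes, within 1.5-fold for 16275 and within 0.5 on the log2 scale for 15561. An equivalence test, 2 one-sided limma tests per gene with Benjamini-Hochberg adjustment, placed 16838 genes (99.9%) within 2-fold of control, 16559 (98.2%) within 1.5-fold and 16121 (95.7%) within 0.5 on the log2 scale. These counts include genes whose signal lay near the array's background in both groups. For those genes the limit says little about the transcript. Among the brightest 3371 genes, 3370 intervals lay within 2-fold.

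The limit depended on how bright a gene was and how many probe sets it had. Among the dimmest genes, with levels of 5.75 to 7.10, the median limit was 0.36 and 82.8% of intervals lay within 0.5. Among the brightest, from 9.78 to 14.04, the median limit was 0.25 and 98.4% lay within 0.5. Genes with 3 to 5 probe sets had a median limit of 0.38, against 0.27 for genes with 11 to 20. The 5 narrowest intervals included those of Psmb4, a proteasome subunit, with a largest change of 0.15, and Gna12, a G protein subunit, with 0.18.

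**Figure D2:**
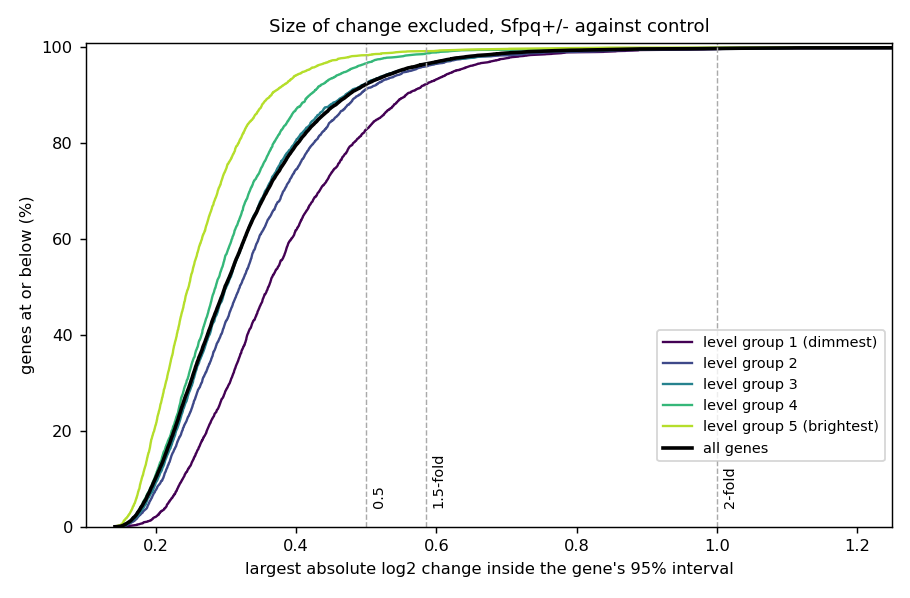
Cumulative percentage of genes (y axis) by the largest absolute log2 change inside the gene's 95% interval (x axis), for all 16854 genes and for 5 equal groups of genes by mean level (1 is the dimmest); dashed lines mark 0.5, 1.5-fold and 2-fold. The curve for the brightest group reaches 98.4% at 0.5 and that for the dimmest 82.8%.

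These limits hold gene by gene. For a single changed gene to pass the adjustment over all genes on its own, it would have needed a difference of 0.85, or 1.80-fold, at the median SE, and 1.00, or 2.00-fold, to be found with 80% power. Intervals widened to hold for all genes jointly lay within 2-fold for 9895 genes. With 3 arrays per group and the median SE, an observed difference below about 1.80-fold in a single gene would therefore not have passed. This limit applies to the observed and not to the true difference. Changes smaller than a gene's own limit are not excluded, nor are larger ones in a part of its probe sets.

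For 16 genes a 2-fold change was not excluded by the equivalence test, and several of them differed widely between arrays of the same group. Of these, 3 were sex-linked. Xist, the RNA that silences an X chromosome in female cells, was at 11.79 and 11.65 on control 1 and 2, at 5.29 on control 3 and at 4.90, 5.20 and 5.87 on the Sfpq+/- arrays. Kdm5d, a Y-linked histone demethylase, was at 4.74 and 4.95 on control 1 and 2, at 9.10 on control 3 and at 9.30, 9.38 and 9.36 on the Sfpq+/- arrays. Eif2s3y, a Y-linked translation factor, was at 4.54, 4.36 and 8.60 on the control arrays and from 8.85 to 8.97 on the Sfpq+/- arrays. By these genes the control group holds 2 female-like arrays and 1 male-like array, and the Sfpq+/- group 3 male-like arrays. Of 585 genes on X and Y, 27 (4.62%) had an unadjusted p below 0.05, against 4.23% of the others. With the Xist level as a covariate no gene passed, and 1082 had an unadjusted p below 0.05.

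A second set of wide intervals belonged to genes of the ventral forebrain, the territory next to the cortex at dissection. Nkx2-1, the transcription factor that defines the medial ganglionic eminence, was at 8.50, 7.38 and 6.84 on the control arrays and 5.87, 6.91 and 7.48 on the Sfpq+/- arrays, a difference of -0.82 (SE 0.44, limma adjusted p = 0.886). Lhx8, a LIM homeobox factor of the same territory, was at 9.45, 8.01 and 7.82 and at 7.02, 7.76 and 8.21, and Sfta3-ps, a transcribed pseudogene, followed at 8.39, 7.11 and 6.95 and at 5.96, 6.58 and 7.22. In each, control 1 was the highest of the 6 and Sfpq+/- 1 the lowest, and the groups overlapped. Over 19 ganglionic eminence and interneuron genes, the mean level was 8.96, 8.51 and 8.27 on the control arrays and 8.52, 8.44 and 8.56 on the Sfpq+/- arrays. The members did not move one way: 7 of the 19 were positive (36.8%, against 61.2% of all genes), with a median of -0.05. At an unadjusted p below 0.05 there were 2 higher and none lower, against 2.22% and 2.02% of all genes. Sst, the somatostatin precursor of interneurons, was at 9.26, 9.22 and 8.99 on the control arrays and 9.63, 9.92 and 9.23 on the Sfpq+/- arrays, a difference of 0.44 with overlapping groups. An interval within 0.5 was reached by 7 of the 19. Fewer cells of a type and less RNA per cell cannot be told apart in tissue of this kind.

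The other genes outside the 2-fold limit included 3 cortical ones that were higher in Sfpq+/- cortex. Bcl6, a transcriptional repressor that promotes neuronal differentiation, was at 7.34, 6.88 and 7.55 on the control arrays and 7.77, 7.999 and 8.06 on the Sfpq+/- arrays, higher by 0.68 (SE 0.18, limma adjusted p = 0.886). Sla, an adaptor protein that dampens receptor signalling, was at 7.61, 7.60 and 7.94 and at 8.80, 8.43 and 7.96, higher by 0.68. Tfap2d, an AP-2 family transcription factor, was at 7.37, 7.34 and 7.89 and at 8.70, 8.57 and 7.63, higher by 0.77. Bcl6 and Sla had no overlap between the groups, by a narrow margin for Sla, and in Tfap2d Sfpq+/- 3 lay within the controls.

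Of the DBHS family, Pspc1 differed more than Nono. Pspc1 was at 9.62, 9.37 and 9.08 on the control arrays and 9.87, 9.71 and 9.70 on the Sfpq+/- arrays, with every Sfpq+/- array above every control. The difference was 0.40 (SE 0.14, 95% interval 0.10 to 0.70, limma adjusted p = 0.886). All 17 of its kept probe sets were higher in Sfpq+/- cortex, and 13 of them had no overlap between the groups. The probe sets share the same 6 RNA samples and are not replicates. Control 3, low on the second component together with Sfpq-/- 3, was the lowest, and without it the difference was 0.26. In Sfpq-/- cortex Pspc1 was at 10.50, 10.61 and 10.23, which is 1.09 above control (limma adjusted p = 0.000337), and the Sfpq+/- mean of 9.76 lay 0.14 below the midpoint, a distance that did not pass (limma adjusted p = 0.664). Nono was at 12.40, 12.37 and 12.30 on the control arrays and 12.44, 12.38 and 12.36 on the Sfpq+/- arrays, a difference of 0.04 with an interval of -0.14 to 0.22.

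A list of DBHS and paraspeckle proteins, which also holds neuronal splicing factors such as Nova2, had 27 measured genes. Of these 25 were positive (92.6%, against 61.2% of all genes) and none passed, with a median difference of 0.07 against 0.03 over all genes. Nova2, a neuronal splicing factor, was the other member with an unadjusted p below 0.05 besides Pspc1, at 9.72, 9.58 and 9.61 on the control arrays and 9.95, 9.83 and 9.80 on the Sfpq+/- arrays. Its difference was 0.22 with an interval of 0.05 to 0.38. Matr3, an RNA-binding nuclear matrix protein, differed by 0.08 with overlapping groups.

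The 10 genes followed here among those lower in Sfpq+/- cortex had the smallest unadjusted p with no overlap between the groups. Because non-overlap was required for entry, it is a description of these genes and not a result. They were led by Kcnip1, an auxiliary subunit of A-type potassium channels. Kcnip1 was at 9.19, 9.27 and 9.21 on the control arrays, 8.75, 8.88 and 8.87 on the Sfpq+/- arrays and 7.50, 7.45 and 7.43 on the Sfpq-/- arrays. The Sfpq+/- arrays lay below all controls and far above all Sfpq-/- arrays. The difference from control was -0.39 (SE 0.07, 95% interval -0.55 to -0.24, 1.31-fold lower, limma adjusted p = 0.886). Split at a control mean of 8, a value chosen after the probe sets were seen, the 12 brighter probe sets of Kcnip1 were all lower, by 0.50 to 0.80, and none overlapped between the groups. The 5 dimmer ones ranged from -0.03 to 0.54. The median of the brighter ones, -0.605, lay outside the 95% interval of the gene's mean. With probe sets below a mean of 7 left out, Kcnip1 was lower by 0.57 (difference -0.57, limma adjusted p = 0.0597), the smallest adjusted p among the 11 named genes that could be measured at that setting. With the median of its probe sets the difference was -0.62, and with no filter on dim probe sets it was -0.27 (limma adjusted p = 0.896).

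Nkain2, which encodes a membrane protein that binds the sodium pump and spans 1207.9 kb, had the same order of groups. It was at 9.44, 9.34 and 9.57 on the control arrays, 9.02, 9.07 and 8.99 on the Sfpq+/- arrays and 7.04, 7.02 and 7.18 on the Sfpq-/- arrays. The Sfpq+/- arrays again lay between the other groups without touching either. The difference from control was -0.43 (SE 0.08, 95% interval -0.61 to -0.24, 1.34-fold lower, limma adjusted p = 0.886). Of its 9 kept probe sets 8 were lower with no overlap between the groups, and 1 dim probe set was higher by 0.32. With no filter on dim probe sets the difference was -0.28.

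Lemd1, a LEM-domain nuclear protein, was at 7.21, 7.19 and 6.92 on the control arrays and 6.69, 6.45 and 6.63 on the Sfpq+/- arrays, a difference of -0.52 (SE 0.10). The 5 of its 11 probe sets that were bright enough to be kept were all lower, by 0.007 to 0.95, and 2 had no overlap. With no filter on dim probe sets its difference was -0.27. Qrfprl, a gene related to the QRFP peptide receptor, was at 8.26, 8.36 and 8.07 and at 7.31, 7.49 and 7.87, a difference of -0.67 (SE 0.13), with 6 of 6 kept probe sets lower. In both the Sfpq+/- arrays lay below the controls, and both were lower still in Sfpq-/- cortex, with differences of -1.50 and -1.21. The Sfpq+/- means were 0.23 above and 0.07 below the midpoint, neither of which passed (limma adjusted p = 0.205 and 0.856).

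The other 6 of the 10 lower genes had control levels below 8. They were Hoxc10, a Hox factor of the posterior body axis, with a difference of -0.46, Selp, an adhesion receptor of platelets and endothelium, with -0.32, Ccl17, a chemokine, with -0.42, Scx, a transcription factor of tendon precursors, with -0.36, Ddx60, an antiviral RNA helicase, with -0.39, and Ly6c2, a monocyte surface protein, with -0.38. Their control means ran from 6.08 for Hoxc10 to 7.01 for Ly6c2. None of these 6 is known as a gene of cortical progenitors or neurons. Several of the differences rested on the handling of dim probe sets: with no filter on them Ddx60 was at -0.024, Ccl17 at -0.21, Selp at -0.21 and Ly6c2 at -0.245. With the median of the probe sets Selp was at -0.20, Ccl17 at -0.65 and Scx at -0.57.

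Among the 10 leading genes in the higher direction, chosen by the same rule, the differences ran from 0.27 to 0.68, or 1.202-fold to 1.60-fold. Unc79, a subunit of the NALCN sodium leak channel complex, was at 8.37, 8.21 and 8.23 on the control arrays and 8.65, 8.62 and 8.51 on the Sfpq+/- arrays, higher by 0.32 (SE 0.08, 95% interval 0.14 to 0.50, limma adjusted p = 0.886). Of its 55 kept probe sets 53 were higher and 22 had no overlap. In Sfpq-/- cortex Unc79 was at 8.02, 8.19 and 8.17, below the controls, but this difference of -0.14 did not pass (limma adjusted p = 0.331). The Sfpq+/- mean was 0.39 above the midpoint (limma adjusted p = 0.00892). Because Unc79 was chosen for its Sfpq+/- difference, which enters this distance, the distance is a description and not separate support.

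Rps6ka5, a kinase that phosphorylates histones and CREB, was at 8.40, 8.29 and 8.22 and at 8.70, 8.78 and 8.52, higher by 0.37. Gpr52, an orphan receptor coupled to cyclic AMP, was at 5.91, 5.77 and 5.997 and at 6.13, 6.20 and 6.41, higher by 0.36, close to the dimmest level kept. Tcte2 was at 6.99, 6.81 and 6.91 and at 7.43, 7.34 and 7.27, higher by 0.44, and the 6 of its 7 probe sets that were kept were all higher. The Sfpq+/- arrays lay above every control in each of these genes, which their choice required. Taken singly, the 3 probe sets of Gpr52 all overlapped between the groups. The remaining 6 were Cipc, a repressor of the clock protein CLOCK, at 0.27, Pgam2, a glycolytic enzyme of muscle, at 0.53, Bcl6, Fap, a protease of activated fibroblasts, at 0.31, Gdap2 at 0.27 and Srrm4os, a transcript annotated opposite the neuronal splicing factor Srrm4, at 0.53. With no filter on dim probe sets Fap was at 0.053. With the median of the probe sets Fap was at 0.18, Srrm4os at 0.18, Cipc at 0.145 and Gpr52 at 0.62.

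**Figure D3:**
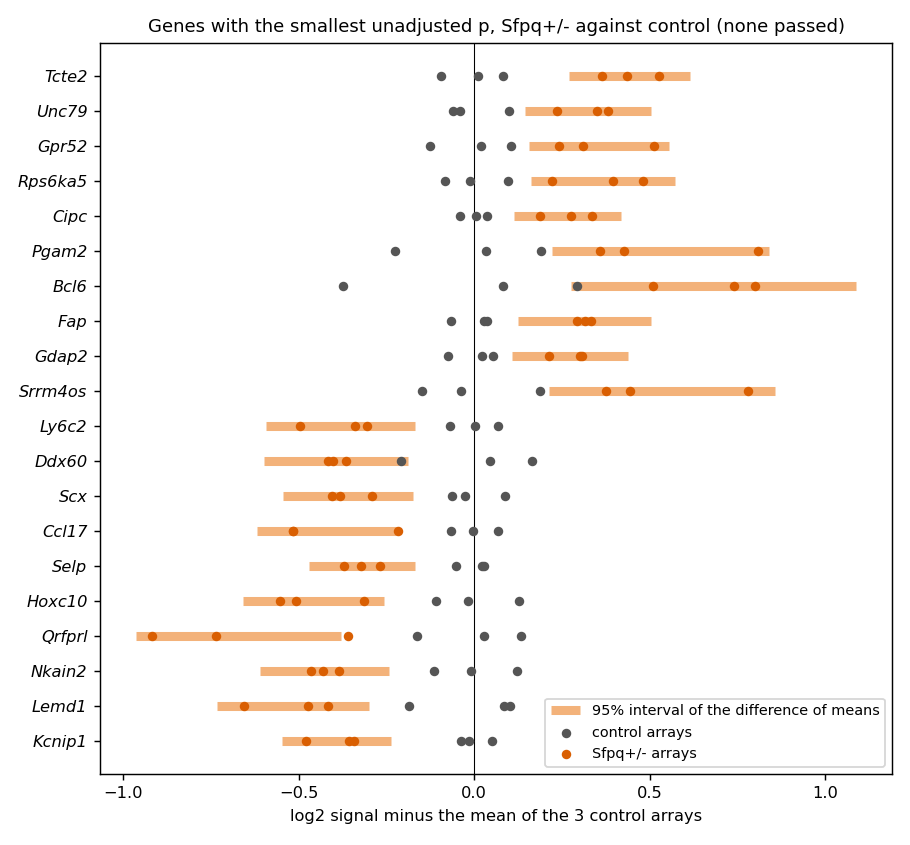
Log2 signal of each array minus the mean of the 3 control arrays (x axis) for the 10 higher and 10 lower genes with the smallest unadjusted p and no overlap between groups; points are arrays and bars the 95% interval of the difference of means. The differences run from -0.67 for Qrfprl to 0.68 for Bcl6, and none passed after adjustment.

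Genes of projection neurons were slightly higher on the Sfpq+/- arrays as a group. Of 24 measured all 24 were positive, against 61.2% of all genes, with a median difference of 0.15 against 0.03 over all genes and a range of 0.04 to 0.35, and none passed. There were 7 higher at an unadjusted p below 0.05, against 2.22% of all genes, and 8 with all Sfpq+/- arrays above the controls, against 8.52%. The list was chosen with these data known. Sox5, which directs corticofugal neuron fate, was at 9.10, 8.90 and 8.90 on the control arrays and 9.56, 9.33 and 9.07 on the Sfpq+/- arrays, a difference of 0.35. Myt1l, a neuronal transcription factor that represses other fates, was at 8.54, 8.41 and 8.50 and at 9.002, 8.66 and 8.64, a difference of 0.28. Sfpq+/- 1 was the highest array in both.

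Smaller differences were found for the other named factors of these neurons. Nfib, a nuclear factor I protein, differed by 0.24 and Tbr1, which specifies deep-layer neurons, by 0.22. Tbr1 was at 9.93, 9.84 and 9.82 on the control arrays and 10.20, 10.10 and 9.95 on the Sfpq+/- arrays. The mean over the 24 genes was 10.31, 10.24 and 10.27 on the control arrays and 10.52, 10.41 and 10.35 on the Sfpq+/- arrays, so the groups did not overlap, with Sfpq+/- 3 just above the highest control. On the same arrays the genes of the ganglionic eminence were highest on control 1, as given above, and their part in these differences was not tested.

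Of the synaptic and excitability genes 27 of 31 were positive (87.1%, against 61.2% of all genes), with a median of 0.15 and none passing. There were 7 members higher and 1 lower, Kcnip1, at an unadjusted p below 0.05, against 2.22% and 2.02% of all genes. The mean level of the list overlapped between the groups, with control 1 at 8.76 and Sfpq+/- 3 at 8.72. Grin2b, an NMDA receptor subunit, was at 8.14, 7.88 and 7.92 on the control arrays and 8.54, 8.44 and 8.21 on the Sfpq+/- arrays, a difference of 0.42 (95% interval 0.15 to 0.68). Cacna1e, the pore of R-type calcium channels, was at 7.50, 7.46 and 7.59 and at 7.84, 7.81 and 7.69, a difference of 0.27. Gabra2, a GABA receptor subunit, had the widest interval of the list, 0.03 to 1.08, with Sfpq+/- 3 at 9.73 and Sfpq+/- 1 and 2 at 8.91 and 9.09.

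Of 32 axon guidance genes 27 were positive (84.4%, against 61.2% of all genes), with a median of 0.10, and 5 were higher at an unadjusted p below 0.05, against 2.22% of all genes. Unc5a, a netrin receptor, was at 8.67, 8.70 and 8.84 on the control arrays and 8.98, 9.002 and 8.95 on the Sfpq+/- arrays, a difference of 0.25. Plxna4, a semaphorin co-receptor, was at 9.64, 9.58 and 9.88 and at 10.27, 9.97 and 9.83, a difference of 0.33 with overlapping groups. Nrp1, its partner in binding semaphorins, differed by 0.19, and Neo1, a netrin and RGM receptor, by 0.17. None of the 32 passed. The mean level of the list was 9.62 to 9.67 on the control arrays and 9.71 to 9.81 on the Sfpq+/- arrays, without overlap.

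The medians of radial glia and cell cycle genes lay near that of all genes. The 21 radial glia genes had a median of 0.03, and all 21 intervals lay within 0.5. Of them 17 were positive (81.0%, against 61.2% of all genes), so a raised positive share was not particular to lists of neurons. The 17 S phase genes had a median of 0.0045 with all 17 intervals within 0.5, and the 19 G2 and M phase genes a median of -0.03 with 17 of 19. Their positive shares were 52.9% and 36.8%. Intermediate progenitor genes had a median of 0.10 with 12 of 16 positive. Among them Sstr2, a somatostatin receptor of newborn neurons and their precursors, was at 10.42, 10.38 and 10.55 and at 10.69, 10.82 and 10.71, a difference of 0.28. The 24 p53 targets, genes that respond to DNA damage and other stress, had a median of 0.05 with all 24 intervals within 0.5, the largest bound being 0.48 for Cdkn1a, the cell cycle inhibitor p21. The 21 stress response genes had a median of 0.03 and the 19 clock genes of 0.08, and every interval of both lists lay within 0.5. Of the clock genes 15 were positive (78.9%). The mean level of the clock genes was 7.98 to 8.05 on the control arrays and 8.06 to 8.13 on the Sfpq+/- arrays, without overlap.

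Markers of other cells in the tissue had narrow limits. All intervals lay within 0.5 for 16 microglia and macrophage genes, 17 endothelial and pericyte genes, 17 meningeal genes, 17 dorsal midline and choroid plexus genes and 12 Cajal-Retzius genes, with medians of 0.04, 0.02, 0.04, 0.01 and 0.05. The 10 erythroid genes had a median of -0.06 and 6 of 10 intervals within 0.5. Their mean level ran from 9.61 to 9.78 on the control arrays and 9.52 to 9.82 on the Sfpq+/- arrays. Of 18 immediate-early genes, which respond within minutes to stimulation and handling, 6 were positive (33.3%, against 61.2% of all genes) and the median was -0.04. The 11 housekeeping genes had a median of 0.04, and 9 of them were positive (81.8%).

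**Figure D4:**
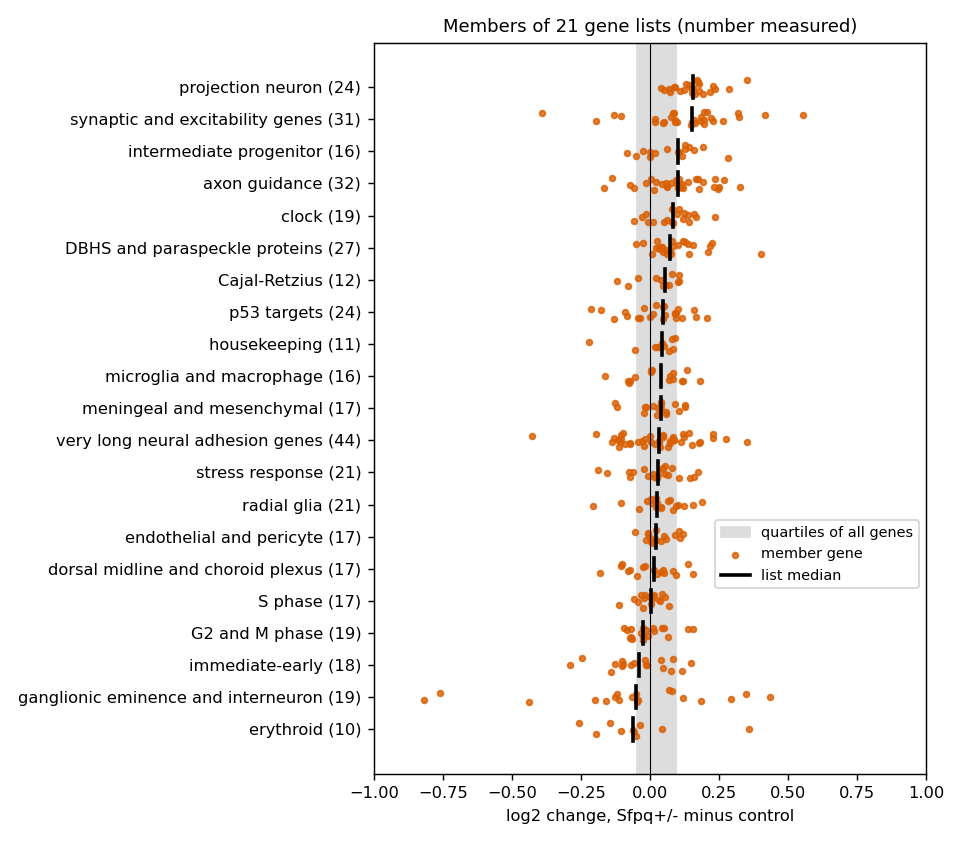
Log2 difference, Sfpq+/- minus control, of each measured member of 21 gene lists (points; number measured in brackets), with the list's median (black bar) and the quartiles of all genes (grey band). Medians run from -0.06 for erythroid genes to 0.15 for projection neuron genes, and no member of any list passed.

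Very long genes were examined because SFPQ is known to act on them. A list of very long neural adhesion genes, which also holds other long genes such as the transcription factor Sox5, had 44 measured. Of these 26 were positive in Sfpq+/- cortex (59.1%, against 61.2% of all genes) with a median of 0.03, and none passed. In the Sfpq-/- arrays, which share the control arrays with this comparison, 37 of the 44 passed as lower, with a median of -0.72. Over all genes 6.12% passed as lower there. By genomic span the median Sfpq+/- difference was 0.002 for genes under 10 kb, 0.03 for 10 to 50 kb, 0.06 for 50 to 100 kb, 0.06 for 100 to 200 kb, 0.06 for 200 to 500 kb and 0.04 for 500 kb and over. The Sfpq-/- medians for the 2 longest classes were -0.18 and -0.45. At an unadjusted p below 0.05, 49 of 713 genes of 200 to 500 kb were higher in Sfpq+/- cortex and 7 lower (7.85% together). Of 205 genes of 500 kb and over, 15 were higher and 2 lower (8.29%, against 4.24% of all genes). All Sfpq+/- arrays lay above the controls in 113 of the 713 and 30 of the 205 genes, and below them in 17 and 11. Over all genes these shares were 8.52% and 3.99%. Shorter classes leaned the same way, with 296 above and 67 below of 2271 genes of 50 to 100 kb. Of 1336 genes of 100 to 200 kb, 211 lay above and 39 below. Genes under 10 kb did not, with 171 above and 233 below of 4651. The source of this lean was not tested.

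A single value per array was compared. The median level of 2254 genes of at least 100 kb minus that of 14453 shorter genes was 0.021, -0.004 and 0.031 on the control arrays and 0.059, 0.0103 and 0.048 on the Sfpq+/- arrays. The difference was 0.023, and the groups overlapped (exact two-sided permutation p = 0.3; 3 against 3 arrays can give no less than 0.1, so this test could not reach 0.05). The same value was on average -0.28 on the Sfpq-/- arrays.

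The 3 genotypes form a series, and the Sfpq+/- level of each gene was set against the midpoint of the control and Sfpq-/- means on the log2 scale. With equal group sizes this contrast is orthogonal to the difference between Sfpq-/- and control. At an adjusted p below 0.05 (limma), 576 genes (3.42%) lay above the midpoint and 169 (1%) below it. Every one of these stayed on its side of a midpoint taken on the linear scale, with median distances of 0.40 above and 0.44 below (-0.44).

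The genes with the largest Sfpq-/- changes were chosen for that change, so their Sfpq-/- values are a description. Dcc, the netrin receptor, was at 11.18, 11.11 and 11.12 on the control arrays, 11.12, 10.99 and 11.08 on the Sfpq+/- arrays and 8.75, 9.07 and 8.48 on the Sfpq-/- arrays. The range of the Sfpq+/- arrays overlapped that of the controls, with 2 of the Sfpq+/- arrays below every control. Of its 43 probe sets 35 were lower and 8 higher, and 7 of the lower ones had no overlap between the groups. The difference of the gene's mean was -0.07 with an interval of -0.34 to 0.20. Its distance above the midpoint was 1.11 (limma adjusted p = 0.000247).

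Unc5d, a netrin receptor of multipolar cortical cells, was at 8.54, 8.45 and 8.69, at 8.70, 8.76 and 8.56, and at 6.41, 6.20 and 6.44 in the same order of groups. Npas3, a neuronal bHLH-PAS factor, was at 9.42, 9.24 and 9.07, at 9.29, 9.37 and 9.19, and at 7.03, 7.05 and 6.85. Grik2, a kainate receptor subunit, was at 9.85, 9.75 and 9.61, at 9.72, 9.84 and 9.78, and at 7.63, 7.76 and 7.23. The Sfpq+/- arrays of Npas3 and Grik2 lay within the control range, with differences of 0.04 and 0.05, and those of Unc5d overlapped it, with 2 of 3 above every control and a difference of 0.11. The ranges of Dgkb, Sytl5, Vit, Frmd5 and Aim2 also overlapped the controls, with differences of -0.14 to 0.02. Nkain2 was the one of the 10 lower genes whose Sfpq+/- arrays lay apart from the controls, and all 10 were called above the midpoint.

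The 10 genes highest over control in Sfpq-/- cortex differed by -0.36 to 0.32 on the Sfpq+/- arrays. Olig3, a bHLH factor absent from most of the dorsal cortex, was at 6.08, 6.32 and 6.29 on the control arrays, 5.93, 6.67 and 6.60 on the Sfpq+/- arrays and 9.66, 9.55 and 8.72 on the Sfpq-/- arrays. Th, the rate-limiting enzyme of dopamine synthesis, was at 8.37, 7.80 and 7.64, at 7.69, 7.34 and 7.83, and at 10.49, 10.29 and 10.58. Crabp2, which carries retinoic acid to its receptor, was at 9.57, 9.66 and 8.96, at 9.04, 9.36 and 9.09, and at 11.47, 11.01 and 11.07. In these 3 the ranges of the Sfpq+/- and control arrays overlapped. For Olig3 all 3 Sfpq+/- arrays lay outside the control range, on both sides of it.

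Mab21l2, a developmental regulator, was the one of these 10 whose Sfpq+/- arrays lay apart from the controls, and it was lower, at 6.83, 6.91 and 6.52 on the control arrays and 6.32, 6.43 and 6.43 on the Sfpq+/- arrays. Its difference was -0.36 (SE 0.13, limma adjusted p = 0.886). On the Sfpq-/- arrays it was at 9.13, 8.86 and 9.31. Elovl7, Calb1, Dlk1 and Rgs13 overlapped with the controls and were called below the midpoint. Fezf1 and Them5 were not called against the midpoint (limma adjusted p = 0.201 and 0.0872), and Fezf1, a zinc finger factor of the forebrain, was spread over 7.04, 8.94 and 8.13 on the Sfpq+/- arrays, on both sides of the controls. In all, 18 of the 20 genes were called on the control side of the midpoint.

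**Figure D5:**
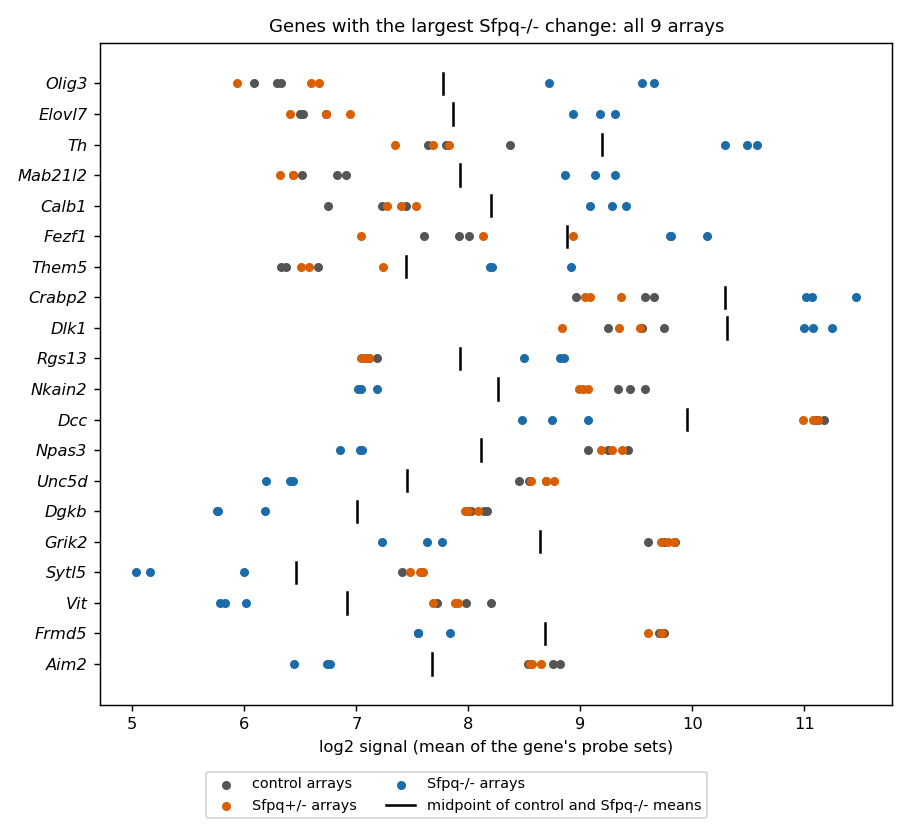
Log2 signal on all 9 arrays for the 20 genes, 10 in each direction, of largest Sfpq-/- change; points are arrays and the vertical bar is the midpoint of the control and Sfpq-/- means. The ranges of the Sfpq+/- and control arrays overlap for 18 of the 20 genes, widely spread for Fezf1, and do not overlap for Nkain2 and Mab21l2.

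Single probe sets, each covering roughly an exon, were tested for changes that a gene mean would hide. None of 628415 probe sets passed (0%), with 28244 (4.49%) at an unadjusted p below 0.05 and a smallest limma adjusted p of 0.983. The largest change inside a probe set's 95% interval had a median of 0.63, or 1.55-fold, and 86.4% of intervals lay within 2-fold and 99.6% within 4-fold. The smallest p belonged to a probe set of Supt5, a transcription elongation factor, at 5.11, 5.16 and 5.05 on the control arrays and 7.13, 6.16 and 6.74 on the Sfpq+/- arrays, higher by 1.57. On the Sfpq-/- arrays it was at 6.56, 6.62 and 6.44. The mean of that probe set on the control arrays, 5.11, was below the level at which probe sets were kept.

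The next probe sets lay in Selp, with a difference of -1.06, and Arid1b, a chromatin remodelling subunit, with 1.03. They were followed by Recql, a DNA helicase, with 1.00, and Dennd2a, with 0.83. The Recql probe set had a mean of 5.17 on the control arrays, and the Selp probe set 5.27 on the Sfpq+/- arrays. Both means were also below the level at which probe sets were kept. When each probe set was taken relative to the mean of its gene on the same array, none of 248590 passed (0%), and 9560 (3.85%) had an unadjusted p below 0.05. The largest change inside a 95% interval had a median of 0.43 on this scale. The 5 smallest p belonged to probe sets of Supt5 (1.41), Ifih1, a sensor of double-stranded RNA (0.88), Dgkh, a diacylglycerol kinase (0.68), Nkain2 (0.75) and Ehbp1l1 (-0.92), all with a limma adjusted p of 1. The Nkain2 probe set is the dim one that did not follow the rest of its gene.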

How the data were processed

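Total RNA of 9 cortical samples was hybridised to exon arrays. The authors deposited a log2 signal for every probe set. Affymetrix Expression Console, version 1.2.0.20, is named in the submitters' processing notes, and the Exon Array Computational Tool in the series text. How background was corrected and arrays normalized and summarised is not given in the sources used, and the log2 scale was read from the values. No further normalization was applied. Of 1256831 probe sets, 318760 had 1 gene symbol in the platform annotation, 6684 several and 931387 none there. Symbols were updated through RefSeq synonyms (18006 current, 3993 updated, 63 kept, 234 not updated because they would have merged). Spans came from RefSeq GRCm38.p6 by symbol, for 16707 genes.

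Probe sets with a mean over the 9 arrays above 5.64 were kept (628415), and genes had at least 3 (248590 probe sets in all). A limma 3.58.1 model (R 4.3.3) with 3 group means was fitted to all 9 arrays, with Benjamini-Hochberg adjustment at 0.05, 95% intervals and equivalence tests, all tested on simulated data. The members, the 22 gene lists and the rule for naming genes were chosen with earlier results of these data known. The rule names Sfpq, Nono, Pspc1, the 10 genes per direction with the smallest unadjusted p and no overlap, the 5 with the largest difference, up to 4 per list, the 10 per direction with the largest Sfpq-/- change, and the genes of 5 probe sets. Clone numbers are not named. Alternatives changed 1 choice at a time.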

Additional observations from a re-analysis of the deposited data

How the results depend on the processing

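No gene passed under any alternative that kept all 6 arrays. Leaving out 1 array gave 0 to 1 genes, the 1 being 4930583K01Rik without Sfpq+/- replicate 2 (-0.89, limma adjusted p = 0.0426), named after its values were seen: it was at 7.17, 7.31 and 7.07 on the control arrays and 6.28, 6.81 and 6.29 on the Sfpq+/- arrays. The count of genes within 2-fold kept within 1.5 times the reported one in 23 of 23 alternatives. The count at an unadjusted p below 0.05, 715, became 1082 with the Xist level as covariate, 2658 with array weights and 350 to 1387 with 1 array left out (350 without control 2, 407 without Sfpq+/- 1, 1387 without control 1). Same-numbered arrays of the 2 groups deviated together with correlations of 0.248, 0.05 and 0.307, and differently numbered ones with -0.341 to 0.112. Whether the numbers pair the arrays was not tested, and the reported fit did not pair them. With the replicate block the count was 1202 and no gene passed. The 745 genes called against the midpoint became 454 with medians of probe sets, 385 with the Xist covariate, 1783 with array weights and 312 to 957 with 1 array left out (312 without Sfpq+/- 1, 350 without Sfpq+/- 2, 471 without control 2). The bright Sfpq difference ranged from -0.19 to -0.085 with 1 array left out and was 0.118 over all kept Sfpq probe sets. The long-minus-short difference was 0.066 with no filter, 0.055 with at least 1 probe set per gene and 0.013 to 0.038 with 1 array left out. Array weights were estimated gene by gene, since the default estimate did not converge. Of 470 values for 23 named genes, 448 moved by less than the spread between replicates. None of these genes had passed, and 2 values changed sign, both of Sfpq over all its probe sets (-0.008 without control 3 and -0.019 without Sfpq+/- 1). With no filter on dim probe sets 7 of 23 named differences shrank by over 1.5 times, and with medians of probe sets 4 shrank and 4 grew by as much. The cause of these shifts was not tested. Probe sets dim in both groups set no limit below the array's background, and 20744 listed at 0 on all arrays carry no information.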
